A study of Homo sapiens with 11 samples.

Results

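Oct4 and Klf4 are transcription factors that are used together to reprogram differentiated cells, and here each was expressed alone in ARPE-19, a spontaneously arisen human cell line from the retinal pigment epithelium (RPE). The direct comparison of the stable line expressing Oct4 with the stable line expressing Klf4 used 4 of the 11 libraries of the series, 2 per line, each taken after 4 days of expression of the open reading frame (ORF). The other 7 libraries, of lines expressing GFP, Sox2 or the combination OSK (Oct4, Sox2, Klf4), entered the filter on low values and the estimate of the spread of each gene. Polyadenylated RNA was sequenced, and the values are normalised counts. Of 60605 features listed, 18828 reached a value of 10 in 2 or more of the 11 libraries and were tested. The labels give neither the species of the ORFs nor the number of clones in a line, and they do not say whether libraries 1 and 2 of a line came from separate cultures. The p-values below therefore measure the spread between these libraries, which may be technical. Each line differs from the other in both of the ORFs, so a gene that differs may have moved in either line.

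Oct4, encoded by POU5F1, is a POU-domain factor of pluripotent cells that recognises an octamer sequence, often beside Sox2. Klf4 is a zinc-finger factor of the Krüppel-like family that recognises GC-rich and CACCC sequences, and it is known for its role in the differentiation of epidermis and gut epithelium. The RPE is a pigmented, polarised epithelial layer behind the retina that carries out the retinoid cycle, clears photoreceptor outer segments and secretes factors such as PEDF.

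The 4 libraries held between 15521940 and 15602120 reads and between 25853 and 26628 features above 0. Libraries outside the comparison stood apart, GFP replicate 1 with 42956 features above 0 and OSK replicate 1 with 32493. Olfactory receptor genes, which these cells should not use, were above 0 for 67.7% and 23.0% of 405 such features in those libraries and for 4.94% to 7.65% in the 4 compared. Without both libraries, 4392 genes were called higher in the Oct4 line and 4017 higher in the Klf4 line, against 4097 and 3760 with them. The 2 libraries of a line were not copies of each other, the chi-square per feature between them being 4.37 in the Oct4 line and 4.98 in the Klf4 line.

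The delivered genes were examined first. POU5F1 had 67326 and 66823 normalised counts in the Oct4 line and 293 and 446 in the Klf4 line, a log2 difference of 7.53 (SE 0.18; limma adjusted p = 1.14e-13). KLF4 had 248 and 242 in the Oct4 line and 24205 and 22142 in the Klf4 line, a log2 difference of -6.56 (SE 0.31; limma adjusted p = 1.38e-10). Each delivered gene was therefore high in the line named for it, although reads of the ORF and of the endogenous gene cannot be told apart. SOX2, which neither line received, had 197 and 179 against 136 and 184, a log2 difference of 0.24 (SE 0.20; limma adjusted p = 0.36). GSTA4, the glutathione transferase named in the title of the series, had 183 and 192 against 177 and 129, a log2 difference of 0.31 (SE 0.19; limma adjusted p = 0.21). The libraries of the lines overlapped for SOX2 and did not for GSTA4, and neither gene passed the test. Over all genes tested, 70.2% showed no overlap.

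With limma on log2(value + 1) and an adjusted p-value (Benjamini-Hochberg over all genes tested) under 0.05, 7857 genes, or 41.7% of those tested, were called different between the lines. They divided into 4097 higher in the Oct4 line (21.8%) and 3760 higher in the Klf4 line (20.0%). A log2 difference of at least 1 was reached by 1755 of the genes higher in the Oct4 line (9.32% of genes tested) and 1463 of those higher in the Klf4 line (7.77%), and a log2 difference of at least 3 by 271 and 239. The median log2 difference over all genes tested was 0.00, the median size regardless of sign was 0.43 and the median SE was 0.17. Protein-coding genes were called in 25.1% of cases as higher in the Oct4 line and in 24.0% as higher in the Klf4 line, and long noncoding RNAs in 16.4% and 11.5%. The libraries of the lines did not overlap for 13221 of the genes tested (70.2%), so the absence of overlap for a named gene was common. These shares are the background against which the gene lists below are to be read.

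**Figure D1:**
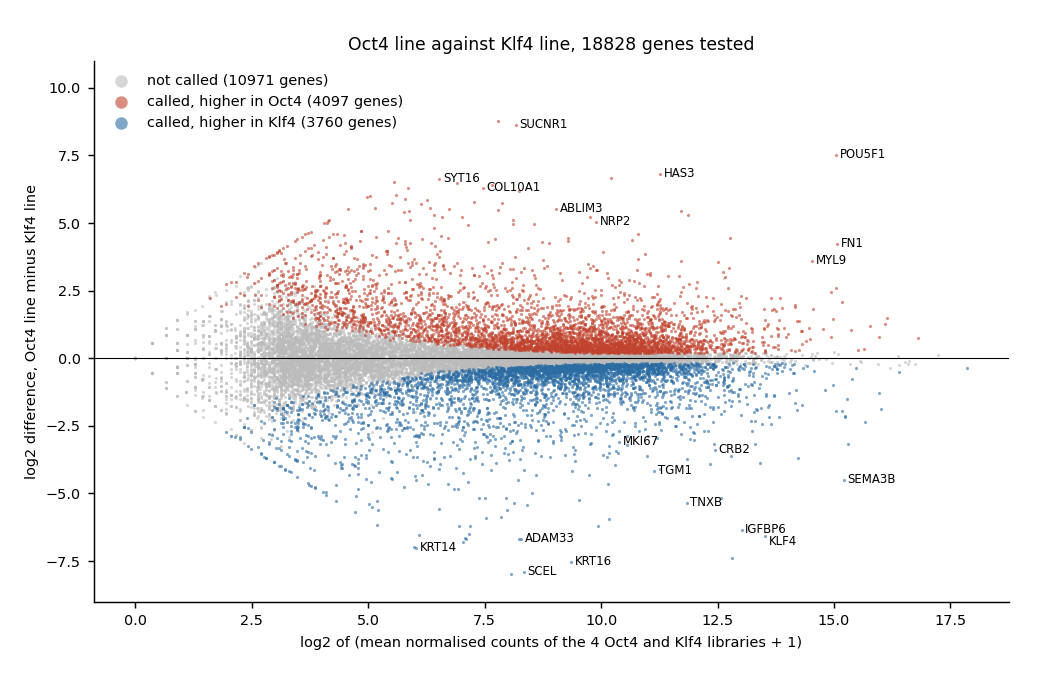
Log2 difference between the lines (vertical axis, Oct4 line minus Klf4 line) against the log2 of the mean normalised count plus 1 over the 4 libraries (horizontal axis), 1 point per tested gene, with called genes in red (4097 higher in the Oct4 line) and blue (3760 higher in the Klf4 line). POU5F1 and KLF4 lie far from the bulk at high levels, with log2 differences of 7.53 and -6.56.

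The promoters of 7 genes with large or coordinated differences are shown because each holds the sequence of a factor that the lists below concern. They were read from RefSeq on GRCh38.p14, as the 250 bases before the start, 5′ to 3′ on the strand of the gene, with capitals marking the match on either strand. The genes were chosen after their values were seen and because they hold a match, so the matches support nothing by themselves. The octamer ATGCAAAT occurred 2 times in SUCNR1, 60 and 47 bases before the start (chr3:151873393-151873642, + strand). CACCC occurred 2 times in SCEL, 221 and 83 bases before the start (chr13:77535456-77535705, + strand), and 1 time in KRT4, 128 bases before it (chr12:52814117-52814366, - strand). The CArG box, the site of the serum response factor SRF, occurred 109 bases before an ACTC1 start (chr15:34795550-34795799, - strand) and 173 bases before a TPM4 start (chr19:16067288-16067537, + strand). The element TTTGAA, called CHR for its role in cell cycle genes, occurred 34 bases before the KIF4A start (chrX:70289854-70290103, + strand) and 47 and 29 bases before the MKI67 start (chr10:128126424-128126673, - strand).
SUCNR1: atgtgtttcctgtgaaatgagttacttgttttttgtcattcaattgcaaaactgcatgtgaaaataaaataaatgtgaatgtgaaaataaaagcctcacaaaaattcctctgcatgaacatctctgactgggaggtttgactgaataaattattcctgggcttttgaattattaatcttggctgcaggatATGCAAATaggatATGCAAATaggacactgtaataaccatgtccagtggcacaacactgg
SCEL: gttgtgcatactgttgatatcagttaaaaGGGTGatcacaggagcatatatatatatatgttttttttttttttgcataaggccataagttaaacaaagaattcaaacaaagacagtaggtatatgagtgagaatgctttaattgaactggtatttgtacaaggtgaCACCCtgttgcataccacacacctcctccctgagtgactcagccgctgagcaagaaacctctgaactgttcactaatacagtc
KRT4: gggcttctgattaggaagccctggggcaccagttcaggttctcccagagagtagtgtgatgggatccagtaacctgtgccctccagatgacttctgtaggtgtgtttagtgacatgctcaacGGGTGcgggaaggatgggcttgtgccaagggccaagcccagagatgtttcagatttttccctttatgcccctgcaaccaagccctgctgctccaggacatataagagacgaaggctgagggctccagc
ACTC1: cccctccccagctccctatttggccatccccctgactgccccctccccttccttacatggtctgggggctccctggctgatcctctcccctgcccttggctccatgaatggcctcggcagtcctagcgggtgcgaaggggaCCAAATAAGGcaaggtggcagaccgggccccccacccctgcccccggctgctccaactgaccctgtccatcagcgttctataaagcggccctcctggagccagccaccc
TPM4: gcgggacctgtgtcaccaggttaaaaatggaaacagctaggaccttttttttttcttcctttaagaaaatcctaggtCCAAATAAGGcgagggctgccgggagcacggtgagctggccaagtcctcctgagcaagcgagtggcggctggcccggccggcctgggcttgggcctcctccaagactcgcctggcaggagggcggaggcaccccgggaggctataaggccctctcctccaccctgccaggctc
KIF4A: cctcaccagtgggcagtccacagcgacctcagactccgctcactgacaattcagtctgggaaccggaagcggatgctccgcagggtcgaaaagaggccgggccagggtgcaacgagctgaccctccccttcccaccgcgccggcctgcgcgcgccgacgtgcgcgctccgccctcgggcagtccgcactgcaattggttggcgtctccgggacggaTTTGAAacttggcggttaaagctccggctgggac
MKI67: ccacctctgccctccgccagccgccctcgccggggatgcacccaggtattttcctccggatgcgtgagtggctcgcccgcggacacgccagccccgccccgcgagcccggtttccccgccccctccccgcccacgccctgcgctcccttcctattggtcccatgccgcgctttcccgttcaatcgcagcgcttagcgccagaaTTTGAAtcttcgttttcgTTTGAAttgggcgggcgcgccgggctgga

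Over all 35116 starts in the table, 54.7% held CACCC, 1.63% the octamer, 1.16% the CArG box and 13.3% TTTGAA within these 250 bases. Among starts of the genes tested the shares were 58.9%, 1.32%, 1.06% and 9.27%. Genes higher in the Klf4 line by a log2 difference of at least 3 held CACCC at 137 of 196 starts (69.9%) and the octamer at 4 (2.04%). Those higher in the Oct4 line by as much held the octamer at 7 of 204 starts (3.43%) and CACCC at 117 (57.4%). The other elements also exceeded their shares among genes tested. The CArG box was at 7 of these 204 starts (3.43%) and 3 of the 196 of the Klf4 line (1.53%), and TTTGAA at 23 (11.3%) and 25 (12.8%). Over all called genes the shares lay closer together, with CACCC at 61.3% of starts of genes higher in the Klf4 line and 59.1% of those higher in the Oct4 line, and the octamer at 1.20% and 1.49%. A match is a description of letters, and binding was not measured.

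The largest differences toward the Oct4 line outside the delivered gene included a receptor, a matrix enzyme and a collagen. SUCNR1, the receptor for succinate, whose promoter holds the octamers shown above, had 579 and 570.0 normalised counts in the Oct4 line and 1.16 and 0 in the Klf4 line. That is a ratio of 991 over 1 read in the Klf4 line (95% counting interval 179 to 39528, counting error only). HAS3, a hyaluronan synthase, had 3825 and 5909 against 32.4 and 52.6, a log2 difference of 6.81 (SE 0.30; limma adjusted p = 5.42e-11). For both genes the lines were far apart, and the lower line had few or no reads for SUCNR1 only.

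COL10A1, a collagen chain of hypertrophic cartilage, had 423 and 275 against 4.63 and 2.29 (log2 difference 6.31, SE 0.46; limma adjusted p = 1.60e-08). ABLIM3, an actin-binding LIM protein, had 985 and 1064 against 18.5 and 25.1 (log2 difference 5.50, SE 0.26; limma adjusted p = 1.06e-10). SYT16, of the synaptotagmin family, had 174 and 188 against 2.31 and 0, a ratio of 157 over 2 reads (95% counting interval 43.2 to 1306). The 12 largest differences in this direction also held BCO1, which cleaves beta-carotene, at 388 and 406 against 5.78 and 2.29, and PGF, placental growth factor, at 129 and 168 against 0 and 5.71. LRRC31 and PRKAG3, a regulatory subunit of the energy-sensing kinase AMPK, had between 97.3 and 256 in the Oct4 line and at most 2.29 in the Klf4 line. The other 2 were POU5F1P3 and POU5F1P4, at 274 to 613 against 3.47 to 9.14. They are pseudogenes with near-identical sequence to POU5F1, so their reads may belong to the delivered gene.

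The 12 largest differences toward the Klf4 line included genes known from stratified epithelium. SCEL, sciellin of the cornified envelope, had 1.16 and 2.29 normalised counts in the Oct4 line and 758 and 531 in the Klf4 line, a ratio of 374 over 3 reads (95% counting interval 127 to 1808). KRT16, a keratin of activated keratinocytes, had 3.48 and 10.3 against 1317 and 1289 (log2 difference -7.52, SE 1.05; limma adjusted p = 2.56e-05). KRT14, the keratin of the basal layer, had no read in the Oct4 line and 111 and 147 in the Klf4 line, at least 37.4-fold higher against a floor of 3 reads in each Oct4 library. All of these were near 0 in 1 line and clearly present in the other.

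LYPD2 likewise had no read in the Oct4 line and 128 and 121 in the Klf4 line, at least 36.1-fold higher against the same floor. NECTIN4, an epithelial adhesion molecule, had 3.48 and 1.14 against 246 and 319. IGFBP6, a secreted binder of insulin-like growth factor, reached high levels, with 209 and 189 against 18071 and 14639 (log2 difference -6.35, SE 0.12; limma adjusted p = 4.71e-15). The metalloprotease ADAM33 had 3.48 and 6.87 against 655 and 571, the chloride channel protein CLIC3 2.32 and 1.14 against 297 and 238, and ZBED2 0 and 1.14 against 143 and 126. TARID, a long noncoding RNA antisense to another gene, had 2.32 and 9.16 against 655 and 542, and without strand its reads and those of its partner cannot be told apart.

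Keratin genes were called higher in the Klf4 line in most of the members tested. Of 37 listed keratin genes, 21 were tested, 15 were called higher in the Klf4 line and 0 higher in the Oct4 line by limma (1 at an unadjusted p under 0.05, and 0 by edgeR or DESeq2), with a median log2 difference of -0.97 against 0.00 over all genes. Beside KRT16 and KRT14, KRT13, a keratin of oral and oesophageal epithelium, had 34.8 and 38.9 against 1422 and 1469 (log2 difference -5.26, SE 0.25; limma adjusted p = 1.19e-10). Its usual partner KRT4, whose promoter is shown above, had 1.16 and 13.7 against 189 and 105 (log2 difference -4.65, SE 0.97; limma adjusted p = 0.00104). Keratin genes are close copies of each other, so reads could be divided between them by the counting. The keratins of simple epithelium were present at high levels in both lines, with smaller differences in the same direction. KRT8 had 10647 and 10829.6 against 13573 and 12766 (log2 difference -0.29), and KRT18 3452 and 3176 against 5368 and 4829.9 (log2 difference -0.62). The median size of the difference over all genes tested was 0.43.

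TGM1, the transglutaminase that cross-links the cornified envelope, had 229.9 and 246 against 4407 and 4088 (log2 difference -4.15, SE 0.19; limma adjusted p = 9.68e-11). DSP, desmoplakin, had 4150.1 and 4624 against 16759.7 and 15914 (log2 difference -1.90, SE 0.10; limma adjusted p = 3.12e-10). Both were higher in each Klf4 library than in each Oct4 library, and 70.2% of genes tested showed no overlap in 1 direction or the other. Of the 45 cornified envelope, desmosome and squamous genes listed, only 17 were tested, with 10 higher in the Klf4 line and 4 in the Oct4 line. The 4 were DSC2, DSG2 and PKP2 of the desmosome and the protease inhibitor SERPINB1, with log2 differences from 0.71 to 1.10. Many squamous genes were at or near 0 in both lines. Of the listed genes, 15 were at 0 in all 4 libraries, among them SPRR1B, SPRR3, SERPINB3 and KLK7. IVL, involucrin, had 6.97 and 6.87 against 3.47 and 4.57. Among the keratins, KRT1, KRT2, KRT6B and KRT6C were at 0 in all 4 libraries. KRT5 had 0 and 1.14 against 1.16 and 0, and KRT6A 0 and 0 against 0 and 2.29.

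Epithelial junction and polarity genes showed both directions, with 9 of 33 higher in the Klf4 line and 4 higher in the Oct4 line. Over all genes tested these shares were 20.0% and 21.8%, so the list was called about as often as genes in general. CRB2, an apical polarity protein of RPE and photoreceptors, had 981 and 952 against 10055 and 10293 (log2 difference -3.39, SE 0.07; limma adjusted p = 7.36e-15). CGN, cingulin of the tight junction, had 58.1 and 50.4 against 568 and 588, and the epithelial transcription factor ELF3 13.9 and 12.6 against 159.6 and 152. In the other direction CLDN11, a claudin, had 103 and 125 against 10.4 and 24.0, and TJP1, the scaffold ZO-1, 3773 and 3974 against 2375 and 2511. CDH1, E-cadherin, did not pass the test, with 281 and 263 against 187 and 219 (log2 difference 0.42, SE 0.18; limma adjusted p = 0.0773).

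**Figure D2:**
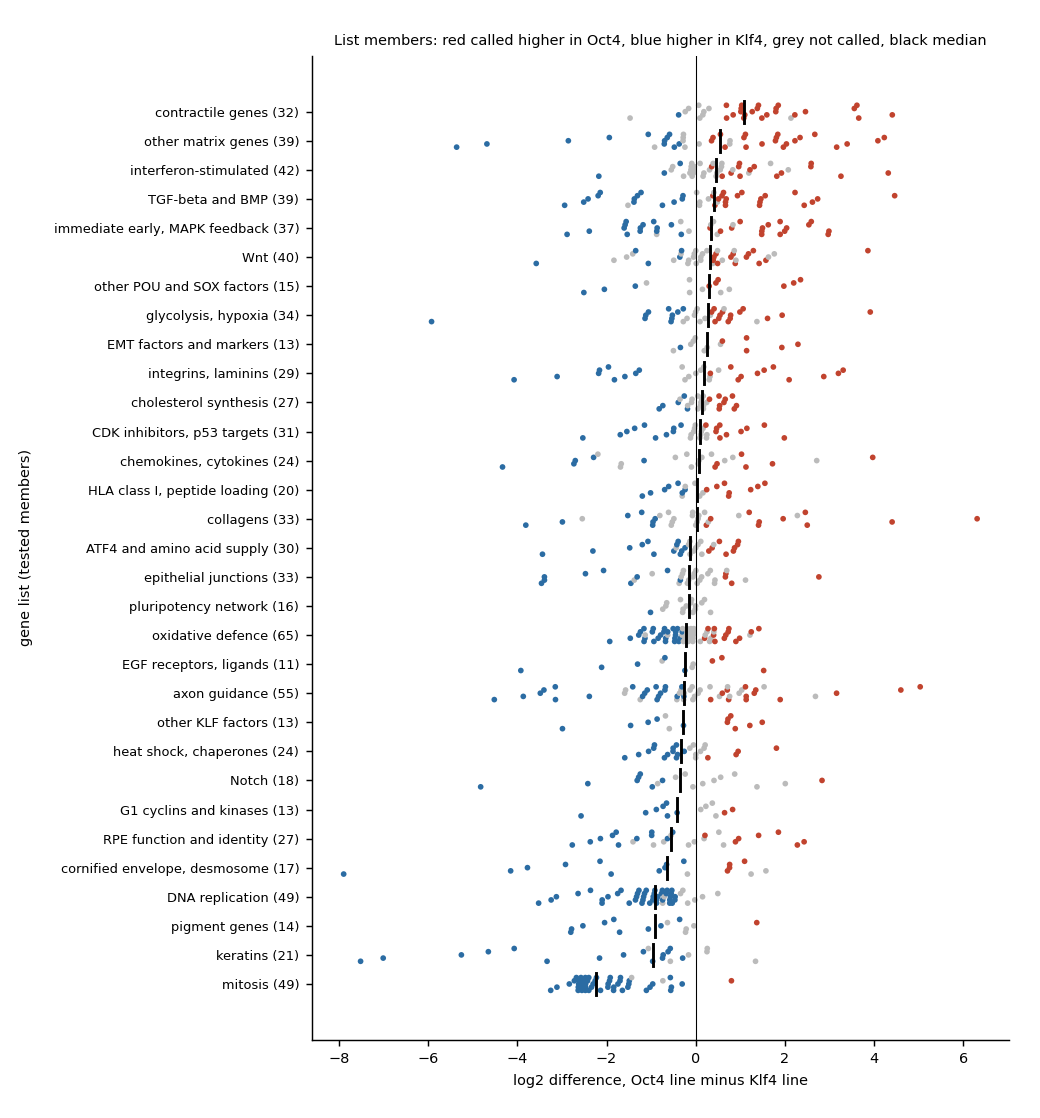
Log2 difference between the lines (horizontal axis, Oct4 line minus Klf4 line) for each tested member of 31 gene lists, with the number tested in brackets, called members in red (higher in Oct4) or blue (higher in Klf4), others in grey, and a black bar at the median of the list. Mitosis, keratins and DNA replication lie to the left, with medians of -2.23, -0.97 and -0.92, and contractile genes to the right, with a median of 1.09.

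Contractile genes were higher in the Oct4 line. Of 32 tested genes of the actin contractile apparatus and targets of SRF, 22 were called higher in the Oct4 line and 1, TAGLN2, higher in the Klf4 line (a call lost without Oct4 replicate 2), with a median log2 difference of 1.09. MYL9, a regulatory myosin light chain, had 44063 and 43759 normalised counts against 3665 and 3502 (log2 difference 3.62, SE 0.13; limma adjusted p = 9.49e-12). ACTA2, smooth muscle actin, had 2902 and 3703 against 268 and 250.2 (log2 difference 3.66, SE 0.30; limma adjusted p = 7.71e-08). Both genes differed by more than 10-fold between the line means. Neither showed overlap between the libraries, as was the case for 70.2% of genes tested.

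TAGLN, transgelin, had 10657 and 10954 against 844 and 996 (log2 difference 3.56, SE 0.26; limma adjusted p = 1.63e-08). ACTC1, cardiac actin, had 425 and 385 against 22.0 and 14.8 (log2 difference 4.41, SE 0.30; limma adjusted p = 7.88e-09). The tropomyosins TPM1 and TPM4, which wind along these filaments, were also higher, TPM1 at 54061 and 52393 against 9442 and 9893 and TPM4 at 20119 and 20066 against 5728 and 5853. SRF itself had 2881 and 2726 against 1328 and 1416, a log2 difference of 1.03 (SE 0.11). The smooth muscle genes CNN1 and MYH11 did not pass the test, with log2 differences of 0.30 and -0.24. The CArG box shown above for ACTC1 and TPM4 was present at 9 of 48 starts of this list (18.8%), against 1.06% of the starts of all genes tested. The list was made in part of known SRF targets, so this share follows from its membership and says nothing about the lines.

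In the GFP line, which took no part in the contrast, MYL9 lay between 7428 and 10778 and ACTA2 between 266 and 752, values between those of the Oct4 line and the Klf4 line or at the edge of the latter. Fewer cells with a feature and less RNA per cell cannot be told apart in bulk samples such as these.

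Non-collagen matrix genes were more often higher in the Oct4 line, while collagens were divided. Of 39 tested genes for matrix proteins, crosslinkers and proteases, 20 were higher in the Oct4 line and 11 in the Klf4 line (median 0.55). FN1, fibronectin, had 68911 and 61434 against 2798 and 4301 (log2 difference 4.23, SE 0.18; limma adjusted p = 4.94e-11). P4HA3, a collagen prolyl hydroxylase subunit, had 737 and 572 against 39.3 and 35.4 (log2 difference 4.09, SE 0.28). LOXL2, a lysyl oxidase, had 4402 and 3137 against 294 and 585 (log2 difference 3.16, SE 0.28).

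The matrix genes higher in the Klf4 line were led by TNXB, a tenascin, with 187 and 146 against 5120.4 and 9173 (log2 difference -5.36, SE 0.22; limma adjusted p = 3.18e-11). FBLN2, a fibulin, had 588 and 414 against 3835 and 3347, and the metalloprotease inhibitor TIMP2 15511 and 15083 against 59168 and 58100.2. Among 33 collagen genes tested, 10 were higher in the Oct4 line and 7 in the Klf4 line. Beside COL10A1, the fibrillar chains COL2A1, with 156 and 114 against 8.10 and 3.43, and COL5A2, with 5519 and 5822 against 967 and 1099, were higher in the Oct4 line. COL8A2, a network-forming chain of Descemet's membrane, was higher in the Klf4 line, at 82.4 and 98.4 against 1500.2 and 1089. So was COL18A1, of basement membranes, at 21719.8 and 19459 against 58504 and 59764.

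Integrin and laminin subunits showed both directions. Of 29 tested, 11 were higher in the Oct4 line and 9 in the Klf4 line. ITGB1, the common beta subunit of many matrix receptors, had 59881 and 59148 against 13013 and 14918 (log2 difference 2.09, SE 0.10; limma adjusted p = 2.30e-10). ITGB3 had 1323 and 1333 against 141 and 146, and ITGA4, which binds fibronectin, 611 and 390.3 against 42.8 and 54.9. Of 11 laminin chains tested, a subset counted after its values were seen, 4 were higher in the Klf4 line, 2 (LAMB1 and LAMA4) higher in the Oct4 line and 5 were not called. Laminins are the trimeric proteins of basement membranes. LAMA5 was at 4574 and 4492 against 21124 and 19398, and LAMB2 at 13692 and 13769.9 against 55000.5 and 51738. LAMB3, a chain of the epidermal basement membrane, had 24.4 and 40.1 against 282 and 273, and ITGB8 had 1118 and 1187 against 5381 and 5062.

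Of 13 tested genes linked with epithelial-mesenchymal transition, 7 were not called, a share near that of all genes tested, of which 41.7% were called. Of the 13, 1 was higher in the Klf4 line and 5 were higher in the Oct4 line. They included the mesenchymal cadherins CDH11, at 8626 and 7088 against 1898 and 2214 (log2 difference 1.93, SE 0.10; limma adjusted p = 3.59e-10), and CDH2, at 6469 and 5977 against 2652 and 3001. The homeobox factor PRRX1 had 217 and 249.5 against 38.2 and 57.1. ZEB1 was called higher in the Klf4 line by a log2 difference of -0.34 (SE 0.10; limma adjusted p = 0.014), a call that was lost without Oct4 replicate 1 (-0.30) or Klf4 replicate 2 (-0.32). VIM, vimentin, did not pass the test, with a log2 difference of 0.19 (SE 0.13).

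Mitotic genes were higher in the Klf4 line almost without exception. Of 49 tested genes of the spindle, the kinetochore and mitotic kinases, 46 were called higher in the Klf4 line and 1 higher in the Oct4 line, with a median log2 difference of -2.23. MKI67, the proliferation marker Ki-67, had 258 and 291 normalised counts in the Oct4 line and 2077 and 2721 in the Klf4 line (log2 difference -3.11, SE 0.13; limma adjusted p = 4.73e-11). TOP2A, topoisomerase II alpha, had 282 and 310.2 against 1964 and 2285 (log2 difference -2.84, SE 0.09; limma adjusted p = 3.26e-12). In both genes the ratio of the line means was above 7, and the Klf4 libraries lay further apart than the Oct4 libraries.

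KIF4A, a chromosome-bound kinesin, had 34.8 and 42.4 against 317 and 443 (log2 difference -3.25, SE 0.24; limma adjusted p = 1.92e-08), and TTK, a kinase of the spindle checkpoint, 33.7 and 35.5 against 217 and 251. CDK1, the kinase that drives mitosis, had 91.7 and 53.8 against 431 and 479.9, and its cyclin CCNB1 158 and 219.8 against 677 and 794. The exception was SGO2, a shugoshin that protects centromeric cohesion, with 189 and 236 against 112 and 130.3 (log2 difference 0.80, SE 0.18; limma adjusted p = 0.00206). PRC1 and NUSAP1 lay below 0, at -1.44 and -0.74, without passing the test. TTTGAA, shown above for KIF4A and MKI67, was present at 20 of 47 starts of this list (42.6%) against 9.27% of starts of all genes tested, and the CCAAT box at 37 (78.7%) against 32.5%. Both elements are known from promoters of mitotic genes, so these shares follow from the membership of the list and say nothing about the lines.

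DNA replication genes were also higher in the Klf4 line, with smaller differences. Of 49 tested, 41 were called higher in the Klf4 line and 0 higher in the Oct4 line by limma (1 at an unadjusted p under 0.05, 1 by edgeR and 0 by DESeq2), with a median of -0.92. E2F1, a factor that turns on S-phase genes, had 116 and 87.0 against 783 and 1001 (log2 difference -3.13, SE 0.16; limma adjusted p = 2.50e-10). TK1, thymidine kinase, had 118 and 119 against 695 and 799 (log2 difference -2.64, SE 0.18; limma adjusted p = 1.01e-08). MCM2 and PCNA differed less than E2F1 and TK1, MCM2 having 217 and 251 against 499 and 458 and PCNA 963 and 969 against 1477 and 1539. TTTGAA was present at 2 of 58 starts of the replication list (3.45%).

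The G1 regulators were more often called higher in the Klf4 line (median -0.42), and the inhibitors of the cycle showed no common direction. Of 13 G1 cyclins, their kinases and MYC genes, 7 were higher in the Klf4 line and 2 in the Oct4 line (1 under DESeq2 or without any 1 of the 4 libraries). CCND1, cyclin D1, had 8154 and 7122 against 12567 and 11466 (log2 difference -0.66, SE 0.13; limma adjusted p = 5.39e-04). Among 31 CDK inhibitors and p53 targets, 10 were higher in each line. CDKN2C, an inhibitor of CDK4 and CDK6, had 95.2 and 98.4 against 542 and 588, and CDKN1C 115 and 125 against 329.6 and 375. TP53I3, GADD45B, GADD45A and PLK2, which respond to stress and p53, were higher in the Oct4 line, with log2 differences of 1.99, 1.54, 1.15 and 1.02. FAS and BTG2, also known as p53 targets, were higher in the Klf4 line, with log2 differences of -1.69 (SE 0.17; limma adjusted p = 5.31e-07) and -1.37 (SE 0.26; limma adjusted p = 5.10e-04). CDKN1A, p21, had 4879 and 5055 against 4296 and 4061 and did not pass the test (log2 difference 0.25, SE 0.13; limma adjusted p = 0.15).

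In the GFP line MKI67 lay between 189.7 and 251 and E2F1 between 64.2 and 76.9, below the libraries of the Oct4 line. Differences from the GFP line were not tested here.

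**Figure D3:**
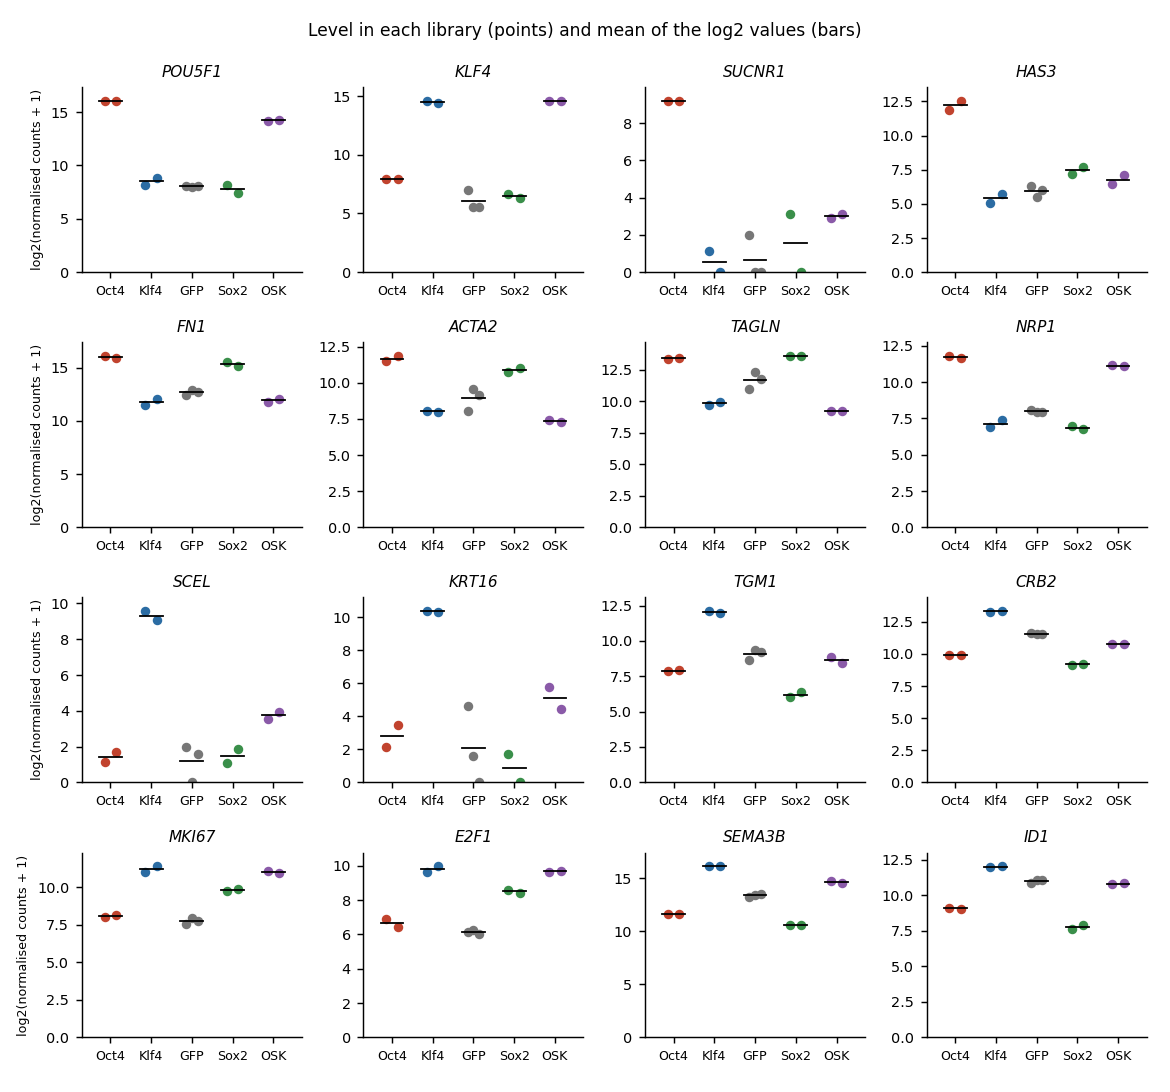
Level of 16 genes in each library (points, log2 of normalised count plus 1) by line, with a bar at the mean of the log2 values. SUCNR1, HAS3, FN1, ACTA2, TAGLN and NRP1 are higher in both Oct4 libraries than in both Klf4 libraries, and SCEL, KRT16, TGM1, CRB2, MKI67, E2F1, SEMA3B and ID1 are higher in both Klf4 libraries.

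Pigment genes and several other RPE genes were lower in the Oct4 line. Of 17 listed genes of melanin synthesis and the melanosome, 14 were tested. DCT, OCA2 and SLC24A5 were not, with at most 2.29 normalised counts in any library of the 2 lines. Among those tested, 9 were called higher in the Klf4 line and 1 higher in the Oct4 line, with a median log2 difference of -0.92. TYRP1, a melanosomal enzyme, had 236 and 312 normalised counts in the Oct4 line and 2057 and 1204 in the Klf4 line (log2 difference -2.53, SE 0.21; limma adjusted p = 6.76e-08). TYR, tyrosinase, had 29.0 and 60.7 against 403 and 217 (log2 difference -2.79, SE 0.40; limma adjusted p = 3.27e-05). The Klf4 libraries themselves differed by more than 1.5-fold for both. They did not overlap those of the Oct4 line, as was the case for 70.2% of genes tested.

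The exception was GPNMB, a glycoprotein of melanosomes and lysosomes, with 28423 and 27926 against 11613 and 10250.5 (log2 difference 1.37, SE 0.10; limma adjusted p = 1.09e-08). It makes up most of the summed level of the list, which was therefore higher in the Oct4 line, at 33183 to 33422 against 20081 to 22295. MITF, the factor that drives pigment genes, had 1786 and 1999.5 against 2343 and 2515, a log2 difference of -0.36 (SE 0.08; limma adjusted p = 0.00202). TRPM1 was called at -2.04, but the call was lost with only the 4 libraries in the fit (-2.04), without Oct4 replicate 1 (-1.22) and without Klf4 replicate 1 (-1.40). In the GFP line TYRP1 lay between 2168 and 2813 and TYR between 349.6 and 578, and both lines compared here had fewer TYRP1 counts than that.

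Genes of RPE function were divided, 11 of 27 higher in the Klf4 line and 7 in the Oct4 line. SERPINF1, which encodes the secreted factor PEDF, had 136 and 179 against 1092 and 596 (log2 difference -2.37, SE 0.25; limma adjusted p = 1.02e-06). TIMP3, an inhibitor of metalloproteases in Bruch's membrane, had 13974 and 14799 against 65731 and 60994, and the eye-field factor SIX3 1031 and 983 against 3706 and 3645. Higher in the Oct4 line was MERTK, the receptor for outer segment uptake, at 136 and 163 against 20.8 and 34.3. Of the markers that define the labelled cell type, some were present and some were at or near 0. OTX2, an RPE identity factor, was present at 1480.5 and 1507 against 2372 and 2267, whereas RPE65, the visual cycle isomerase, had no read in 3 of the 4 libraries and 4.63 in Klf4 replicate 1. Other listed genes were also too low to be tested. CRX and SIX6 were at 0 in all 4 libraries, TTR had at most 1.16 and RGR at most 4.63. RBP4 had 0 and 0 against 8.10 and 13.7, and TFEC 6.97 and 4.58 against 1.16 and 2.29.

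Markers of other cell types gave mixed results, and the part they play in the lists above was not tested. Of 5 melanocyte markers, 4 were tested. ERBB3, with 22.1 and 18.3 against 379 and 269, and SOX10, with 4.64 and 1.14 against 30.1 and 25.1, were higher in the Klf4 line, KIT and EDNRB higher in the Oct4 line at no more than 29.0, and the summed level was 59.5 to 72.0 against 302 to 416. Of 5 fibroblast markers, 3 of the 4 tested were higher in the Oct4 line, FAP at 896 and 699 against 55.5 and 105, PDGFRA at 17.4 and 14.9 against 2.31 and 0, and PDGFRB at 9514 and 7704 against 6287 and 7136. Their summed level was 8463 to 10468 against 6381 to 7269, and DPT was at 0 in all 4 libraries. The PDGFRB call was lost under DESeq2 (0.36), with only the 4 libraries in the fit (0.35), and without Oct4 replicate 1 (0.20) or Klf4 replicate 1 (0.26). Without Oct4 replicate 1, 1 fibroblast marker was called higher in the Oct4 line. The melanocyte count of 2 in the Oct4 line fell to 1 under DESeq2 and without any 1 of the 4 libraries, and that in the Klf4 line without any 1 except Oct4 replicate 1.

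Of 8 leukocyte markers 1 was tested and 0 were called by limma, edgeR or DESeq2 (0 at an unadjusted p under 0.05), with TYROBP at 0 and a summed level of 6.85 to 16.3 against 4.57 to 9.25. Of 6 endothelial markers 4 were tested and 0 were called by limma (0 at an unadjusted p under 0.05, and 1 by edgeR or DESeq2), with a summed level of 706 to 708 against 691 to 737. Of 8 neuronal and glial markers 5 were tested, with MAP2 higher in the Oct4 line and TUBB3 and SYP higher in the Klf4 line (for SYP lost under DESeq2 or without Oct4 replicate 1), at a summed level of 2113 to 2351 against 1404 to 1599.

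Semaphorins and their receptors, which steer axons and also act in vessels and epithelia, held some of the best-separated differences at high levels. Of 55 tested axon guidance genes, 20 were higher in the Klf4 line and 13 in the Oct4 line. The secreted ligand SEMA3B had 3189 and 3155 normalised counts against 72735 and 72714 (log2 difference -4.52, SE 0.08; limma adjusted p = 4.71e-15). Its relative SEMA3F had 179 and 177 against 1624 and 1556 (log2 difference -3.15, SE 0.13; limma adjusted p = 2.18e-11). Both ligands were thus higher in the Klf4 line, with libraries of a line nearly equal.

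The neuropilins, which bind these ligands on the cell surface, went the other way. NRP1 had 3565 and 3280.2 against 119 and 165 (log2 difference 4.60, SE 0.13; limma adjusted p = 8.30e-13), and NRP2 1974 and 1699.6 against 44.0 and 68.6 (log2 difference 5.03, SE 0.24; limma adjusted p = 1.58e-10). Of their plexin partners, PLXNA2 was higher in the Klf4 line at 211 and 219.8 against 2292 and 2566, and PLXNA4 higher in the Oct4 line at 68.5 and 52.6 against 13.9 and 17.1. The netrin receptor UNC5B had 1204 and 1597 against 21038 and 19519.5, and the ephrin receptor EPHB3 179 and 196 against 9.25 and 42.3.

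**Figure D4:**
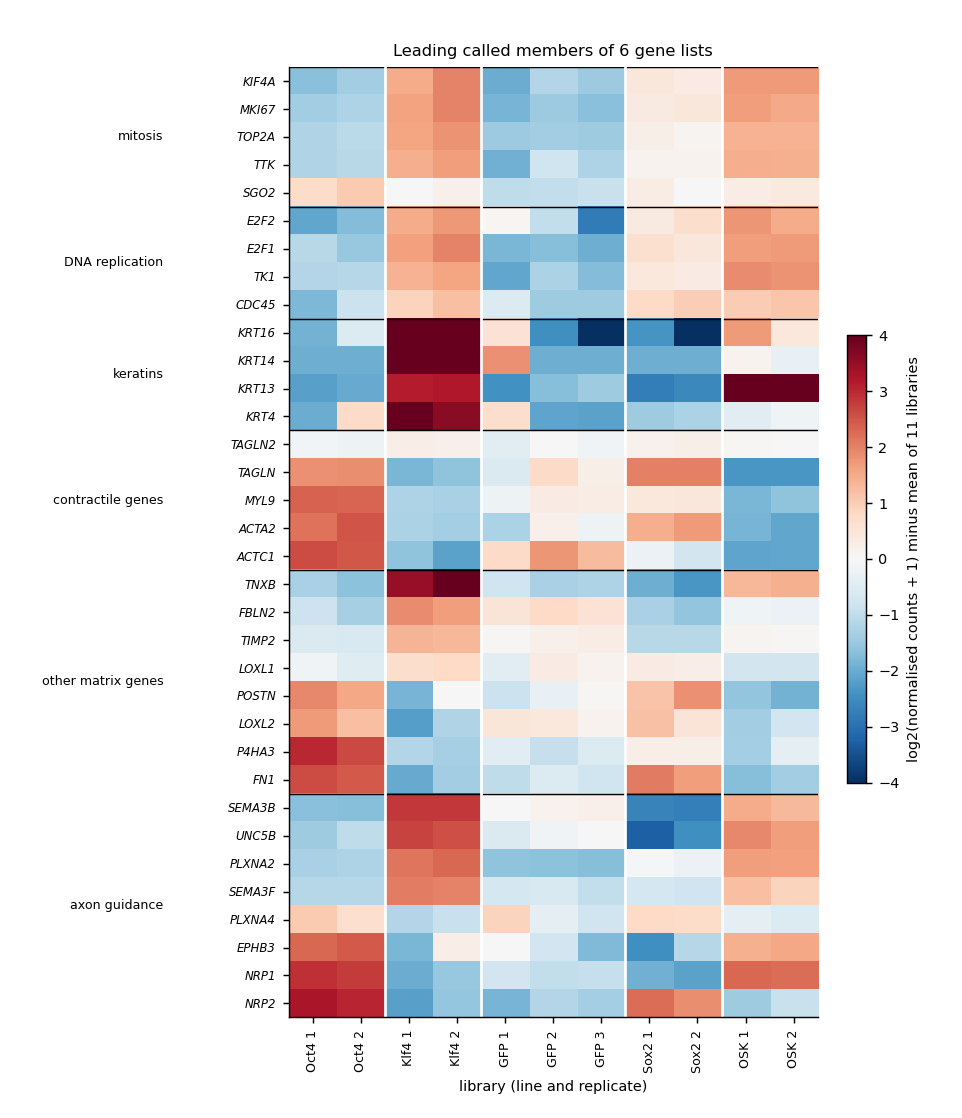
Log2 of normalised count plus 1 minus the mean of that gene over the 11 libraries (colour, capped at 4 in either direction) for the leading called genes of 6 lists (rows) in each library (columns). The 4 columns at the left are the Oct4 and Klf4 libraries, with mitotic genes such as KIF4A and MKI67 lower and contractile genes such as ACTC1 and MYL9 higher in the Oct4 columns.

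TGF-beta and BMP genes showed both directions. Of 39 tested, 19 were higher in the Oct4 line and 13 in the Klf4 line, with a median of 0.41. Among genes known as TGF-beta targets, the matricellular CCN2 had 65467 and 50425 against 8748 and 10022 (log2 difference 2.62, SE 0.16; limma adjusted p = 2.35e-09). The ligands INHBA, at 209 and 264 against 34.7 and 52.6, and TGFB2, at 3503 and 3208 against 1094 and 1184, were also higher there.

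The ID genes, known as BMP targets, were higher in the Klf4 line. ID1, an inhibitor of basic helix-loop-helix factors, had 552 and 537 against 4127 and 4243 (log2 difference -2.94, SE 0.10; limma adjusted p = 3.24e-12), and ID2 703 and 673 against 3198 and 3083 (log2 difference -2.19, SE 0.08; limma adjusted p = 7.34e-12). ID3 and ID4 were called in the same direction, with log2 differences of -1.31 and -2.14, so that 4 of 4 listed ID genes were higher in the Klf4 line, a subset singled out after its values were seen. The coreceptor TGFBR3 had 569 and 453 against 2849 and 2958, and BMP1, a protease that trims procollagen, 3976 and 3164 against 18555 and 19291.

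Notch and Wnt genes were called less often than TGF-beta and BMP genes, with 10 of 18 and 22 of 40 not called. Over all genes tested, 41.7% were called. Of 18 Notch genes tested, 7 were higher in the Klf4 line and 1, HEY1, higher in the Oct4 line. LFNG, which modifies Notch receptors, had 5.81 and 9.16 against 215 and 256 (log2 difference -4.82, SE 0.38; limma adjusted p = 3.57e-08), and the ligand JAG1 869 and 990.0 against 2405 and 2115. The target HEY1 had 87.1 and 88.1 against 12.7 and 10.3. Between 2 and 3 Notch genes were called higher in the Oct4 line by edgeR, with other sets of libraries in the fit and without either Klf4 replicate. Of 40 Wnt genes, 13 were higher in the Oct4 line, led by the secreted SFRP4 at 4109 and 3256 against 230.2 and 273 (log2 difference 3.86, SE 0.26; limma adjusted p = 7.63e-09). Another 5 were higher in the Klf4 line, led by the ligand WNT9A at 151 and 173 against 2029.9 and 1853 (log2 difference -3.58, SE 0.12; limma adjusted p = 3.14e-12). Without Oct4 replicate 1, 3 Wnt genes were called higher in the Klf4 line.

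Immediate early and MAPK feedback genes were called often and in both directions, 16 of 37 higher in the Oct4 line and 14 in the Klf4 line. The ERK phosphatase DUSP6 had 662 and 686 against 96.0 and 75.4 (log2 difference 2.97, SE 0.14; limma adjusted p = 1.59e-10), and the ETS factor ETV1, a target of ERK, 1484 and 1998 against 261 and 335. SPRY4, ETV4 and ETV5, which respond to the same kinase, were higher in the Oct4 line by log2 differences of 1.89, 1.99 and 1.50. Higher in the Klf4 line were another phosphatase, DUSP7, at 381 and 332 against 2718 and 2554 (log2 difference -2.89, SE 0.09; limma adjusted p = 2.84e-12), the AP-1 subunit JUNB at 4043 and 3175 against 10469 and 11025, and the nuclear receptors NR4A3 and NR4A1, with log2 differences of -2.39 and -1.61. Receptors and ligands of the EGF family were called in 3 of 11 cases as higher in the Oct4 line and in 5 as higher in the Klf4 line, the latter led by ERBB3 and by the ligand BTC at 116 and 152 against 701 and 476.

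Interferon-stimulated genes were more often higher in the Oct4 line, 14 of 42 against 3. GBP1, a guanylate-binding protein, had 819.8 and 806 against 53.2 and 29.7 (log2 difference 4.32, SE 0.29; limma adjusted p = 6.26e-09). IRF1, a factor that turns on such genes, had 1719 and 1648 against 429 and 458 (log2 difference 1.92, SE 0.12; limma adjusted p = 3.05e-09), and the DNA sensor IFI16 379.7 and 452 against 97.2 and 48.0. The most often used markers of an interferon response did not pass the test, ISG15 having a log2 difference of 0.18 and IFIT1 one of -0.52. Without Oct4 replicate 1, 1 interferon-stimulated gene was called higher in the Klf4 line. HLA class I and peptide loading genes were divided, 8 of 20 higher in the Oct4 line, among them the peptidase ERAP1 at 1513 and 1446 against 576 and 549.6, and 7 in the Klf4 line, among them B2M, the light chain, at 5175 and 5439 against 9141 and 7146. Without Klf4 replicate 1, 4 of them were called higher in the Klf4 line.

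Antioxidant and NRF2 genes, the kind of effector the series set out to plot, were more often higher in the Klf4 line, 26 of 65 against 13 in the Oct4 line, with a median log2 difference of -0.21. NQO1, a quinone reductase, had 145 and 132 against 361 and 298 (log2 difference -1.24, SE 0.15; limma adjusted p = 4.37e-06). GCLM, a subunit of the enzyme that limits glutathione synthesis, went the other way with 771 and 797 against 298 and 288 (log2 difference 1.42, SE 0.10; limma adjusted p = 1.42e-08). Both are known NRF2 targets, and the libraries did not overlap for either, as for 70.2% of genes tested. The cystine carrier SLC7A11 had 23.2 and 27.5 against 77.5 and 66.3, and TXNIP, which binds thioredoxin, 114 and 190.0 against 702 and 451. GSR, glutathione reductase, had 2854 and 2769 against 1452 and 1393 and MSRB3, a methionine sulfoxide reductase, 2387 and 2496 against 1093 and 969, both higher in the Oct4 line. NFE2L2, NRF2 itself, was called higher in the Klf4 line by a log2 difference of -0.38.

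Genes of glycolysis and hypoxia and those of ATF4 and amino acid supply were called often and in both directions. Not called were 10 of 34 and 10 of 30, and over all genes tested 41.7% were called. The medians of the log2 differences were 0.27 and -0.13. CA9, a carbonic anhydrase known from hypoxia, had 26.7 and 46.9 against 2792 and 1756 (log2 difference -5.93, SE 0.31; limma adjusted p = 4.04e-10), whereas the peptide hormone ADM, also known from hypoxia, had 2029 and 1923 against 116 and 146 (log2 difference 3.91, SE 0.13; limma adjusted p = 3.66e-12). Of 34 glycolysis and hypoxia genes, 14 were higher in the Oct4 line and 10 in the Klf4 line. DDIT4, an inhibitor of mTORC1, had 221 and 206 against 2508 and 2147 (log2 difference -3.44, SE 0.10; limma adjusted p = 1.25e-12) and the amino acid carrier SLC7A5 3566 and 3250.5 against 15501 and 18316, within a list of 30 ATF4 and amino acid genes of which 12 were higher in the Klf4 line and 8 in the Oct4 line.

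Heat shock proteins and chaperones were higher in the Klf4 line in 13 of 24 cases and in the Oct4 line in 4. HSPB8 had 1915 and 2192 against 6499 and 5873 and its partner BAG3 2859 and 2739 against 1406 and 1489. Cholesterol genes were higher in the Oct4 line in 9 of 27 cases and in the Klf4 line in 5, with all named differences below 1. SREBF2, the factor that controls them, had 18468 and 18047 against 10302 and 10337 (log2 difference 0.82, SE 0.08; limma adjusted p = 2.29e-07). The count of 5 fell to between 2 and 3 under DESeq2, without the filter and without any 1 of the 4 libraries. Chemokine and cytokine genes were called in 6 and 5 of 24 cases, with C3, a complement component, at 26.7 and 41.2 against 1007 and 471 (log2 difference -4.33, SE 0.50; limma adjusted p = 2.96e-06). The chemokine and cytokine count fell to 2 in the Oct4 line without Oct4 replicate 2 and to 3 without Klf4 replicate 1. It was 3 in the Klf4 line without any 1 of the 4 libraries, at a pseudocount of 0.5 and without the filter.

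Relatives of the delivered factors also differed. Of 13 other KLF genes tested, 5 were higher in the Klf4 line, led by the repressor KLF3 at 910.4 and 822 against 6783 and 6973 (log2 difference -2.99, SE 0.07; limma adjusted p = 1.29e-13), and 6 in the Oct4 line, led by KLF15 at 422 and 354 against 117 and 160.0. Of 15 other POU and SOX genes, 6 were higher in the Oct4 line and 3 in the Klf4 line. Those higher in the Oct4 line included SOX5 at 362 and 365 against 82.1 and 60.6 and POU3F2 at 129 and 125 against 30.1 and 24.0. SOX9, a factor of progenitors and cartilage, was higher in the Klf4 line, at 1044 and 925 against 4259.9 and 3891 (log2 difference -2.05, SE 0.09; limma adjusted p = 4.02e-11).

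The pluripotency network showed little difference. Of 29 listed genes, 16 were tested, 0 were called higher in the Oct4 line by limma (0 at an unadjusted p under 0.05, and 0 by edgeR or DESeq2) and 1, PODXL, was called higher in the Klf4 line, at 2402 and 2812 against 5781 and 4774 (log2 difference -1.01, SE 0.16; limma adjusted p = 6.26e-05). NANOG, a core factor of pluripotent cells, stood at 5.81 and 8.01 in the Oct4 line and 6.94 and 11.4 in the Klf4 line (log2 difference -0.34, SE 0.66; limma adjusted p = 0.728). At counts this low only a large difference could have been called.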

How the data were processed

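The authors deposited 1 table of gene-level normalised counts, a signal scaled per library, for 11 libraries, and all of its columns were used. TRIzol extraction, oligo(dT) enrichment and the NEBNext Ultra II kit are given in the labels' protocols. The submitters' processing notes list STAR 2.7.1a and featureCounts 1.6.2 and the builds GRCh38, hg38, GRCm38 and mm10, with no role for each, and strand and annotation are not given in the sources used here. In 9 libraries, the 4 compared among them, whole reads were recovered, since 100% of values no larger than 200 lay within 0.0061 of a multiple of what 1 read is worth. For GFP replicates 1 and 2 they were not.

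Genes were tested with limma 3.58.1 in R 4.3.3 (lmFit, and eBayes with trend) on log2(value + 1), which understates differences of low genes. The planned test depended on the unit, and limma was the one planned for normalised counts. All 11 libraries entered 1 fit with a mean per group (6 residual and 9.21 prior degrees of freedom), with Benjamini-Hochberg adjustment over 18828 genes and a threshold of 0.05. With 2 libraries against 2, an exact permutation test of 1 gene could not go below p = 0.333. A fold against a line with 0 reads was computed at 3 reads per library. Ratios over 1 to 3 reads carry an exact 95% interval that covers counting error only. The procedure was tested on simulated data. edgeR 4.0.16 and DESeq2 1.42.0 on the recovered reads, pseudocounts of 0.5 and 10, other filters, other sets of libraries, a replicate block, and fits lacking 1 library were the alternatives.

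Named were the delivered genes, SOX2 and GSTA4. Named too were the 12 largest called differences per direction with a unique gene symbol, a mean of at least 100 in the higher line and no overlap, and up to 4 called genes per list and direction with a mean of at least 50. Other genes were named after their values were seen. A few genes that this rule names are not reported here. The comparison, the 36 lists (1120 genes) and their members were chosen with earlier results of these data known. LOR and RIGI were not analysed here under those symbols. Gene types came from RefSeq for 84.9% of genes tested, and promoter sequences came from RefSeq (GRCh38.p14). Promoters of KRT16, KRT14, TAGLN and MYL9 were not found among the promoter sequences used here.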

Additional observations from a re-analysis of the deposited data

How the results depend on the processing

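Under each of 16 alternatives no gene called in the reported fit was called in the opposite direction, and no named gene changed sign. The counts of genes called higher in the Oct4 line and in the Klf4 line were 4338 and 4026 with edgeR, 3591 and 3317 with DESeq2, and 3539 and 3161 without the filter on low values (48093 features tested). With only the 4 compared libraries in the fit they were 3778 and 3402, and without the GFP libraries 4357 and 4021. Leaving out 1 of the 4 libraries, which leaves a line with 1 sample assumed to vary like the others, gave 3226 to 3505 and 2891 to 3158. Deviations of same-numbered Oct4 and Klf4 libraries correlated at -0.07, so the values showed no effect shared by replicate number. This cannot tell whether same-numbered libraries were handled together. With the replicate number as a block, and GFP replicate 3 left out, the counts were 3938 and 3605. Of the 238 named genes 1, IFITM2, lost its call there. Of the named genes 5 lost their call under DESeq2 and between 8 and 16 without 1 of the 4 libraries, CCND2 among them each time. No keratin was called higher in the Oct4 line in the reported fit, and 1 was without Oct4 replicate 2 or without GFP replicate 1 and OSK replicate 1. Depth limits genes such as SCEL and SUCNR1, for which the lower line had 3 reads or fewer.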
